A study of Mus musculus with 35 samples.

Results

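Splenic type 1 conventional dendritic cells (cDC1) of wild-type mice were compared between 18 h and 5 h after an injection of poly IC. The comparison took all arrays of 2 groups, 3 arrays at 18 h and 5 arrays at 5 h, together 8 of the 35 arrays in the series. They were chosen by their labels alone. Each array carried labelled cDNA made from total RNA of cDC1 that had been sorted by flow cytometry from the digested spleen.

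The mice of the 18 h group were Mxd1+/+ and were the controls of a set of arrays on Mxd1 deficiency. The mice of the 5 h group were Mycl+/+ and were the controls of a set on Mycl deficiency. Both groups had received 100 µg of poly IC by intraperitoneal injection. The labels give no age or sex. Replicates are described as biological, but whether every array came from a different mouse is not stated. Time and set coincide: the 18 h arrays and the 5 h arrays belong to sets that were normalized apart, so a difference between times cannot be told apart from a difference between sets. For that reason no p-value was computed, the arrays were put on a common scale by subtracting each array's own median, and only large shifts were counted. No untreated array shares a set with either group. Resting WT arrays of a further set, 5 in number, are given as side values.

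Poly IC is a synthetic double-stranded RNA. It is sensed in endosomes by TLR3, which cDC1 carry at high levels, and in the cytosol by RIG-I and MDA5, and both routes lead to interferon beta. Secreted interferon acts back on the cells through its receptor and switches on a large set of antiviral genes, and feedback inhibitors later dampen that response. At the same time cDC1 mature: they raise costimulatory molecules and the chemokine receptor CCR7, move towards the T cell zones and present antigen to CD8 T cells.

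The arrays carried the signature of cDC1. Xcr1, Clec9a, Cd8a, Irf8, Batf3, Wdfy4, Tlr3, Cadm1, Naaa, Flt3 and Itgax stood at percentile 92.0 or above among named clusters on all 8 arrays. Zbtb46 lay between percentiles 74.8 and 84.9 and Itgae between 70.8 and 92.6. Of the markers of other spleen cells, Clec4a4 (cDC2), Adgre1 (macrophages), Cd79a (B cells), Ncr1 (natural killer cells) and Ly6g (neutrophils) stayed under the filter on low values. Others passed it: on their highest array Sirpa (cDC2) reached percentile 66.1, Ccr9 (plasmacytoid cells) 74.6, Csf1r, C1qa and Cd14 (monocytes and macrophages) 51.4, 57.4 and 89.2, Ms4a1 (B cells) 57.4, Cd3e (T cells) 56.0, and the neutrophil genes S100a8 and Mpo 82.4 and 82.6. In RMA units before centring the array medians ran from 5.95 to 6.01 at 18 h and from 5.50 to 5.53 at 5 h. An average of 25.7 exactly equal values linked pairs of 18 h arrays and 14.1 linked pairs of 5 h arrays, against 0.4 across the groups. The 5 h arrays were uneven: arrays 1 and 4 had low interferon-stimulated genes, and counts of list members that move by over 1.5 times without them are therefore given both ways. They were set apart by their low Ifit1, so values of interferon genes without them describe the remaining arrays and test nothing.

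Of 14032 genes tested, 32 were higher at 18 h by at least 2 log2 units (4-fold) with no overlap between the groups (0.228%), and 31 were lower (0.221%), together 0.449%. At 1 log2 unit (2-fold) the counts were 296 higher (2.11%) and 472 lower (3.36%), together 5.47%. The split of large shifts depended on the scaling: it was 42 higher and 19 lower after quantile normalization of the 8 arrays and 38 and 24 with centring on the 75th percentile. Without 5 h arrays 1 and 4 the large shifts were 25 higher (0.18%) and 85 lower (0.614%), together 0.794%, of which 22 and 26 were also large with all arrays. At 1 log2 unit they were 339 higher (2.45%) and 629 lower (4.54%), together 6.99%, of 13853 genes tested. A change of set alone, with time and genotype kept, was read from resting Mycl KO cells, present in 2 sets (5 and 4 arrays). There, 6 genes passed the same rule (0.0428%), 0 higher and 6 lower, and at 1 log2 unit 83 were higher (0.592%) and 75 lower (0.534%), together 1.13%. That pair of sets is not the pair compared here, so its counts are a yardstick and not a correction. Values given for set alone are set 2 minus set 1 in these cells. Neither set holds the 18 h or 5 h arrays, so their sign bears no relation to that of 18 h minus 5 h. They show how far a gene can move between sets and not how far it moved here.

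The rule's edge cut through a continuous range. On the higher side Clec2i at 2.00 and Sned1 at 2.01 were just inside, and P3h1 at 1.99 and Arc at 1.98 just outside. On the lower side Gm8995 at -2.01 and Timd4 at -2.02 were just inside, and Dennd4a at -1.99, S100a8 at -1.99 and Kif11 at -1.98 just outside.

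**Figure D1:**
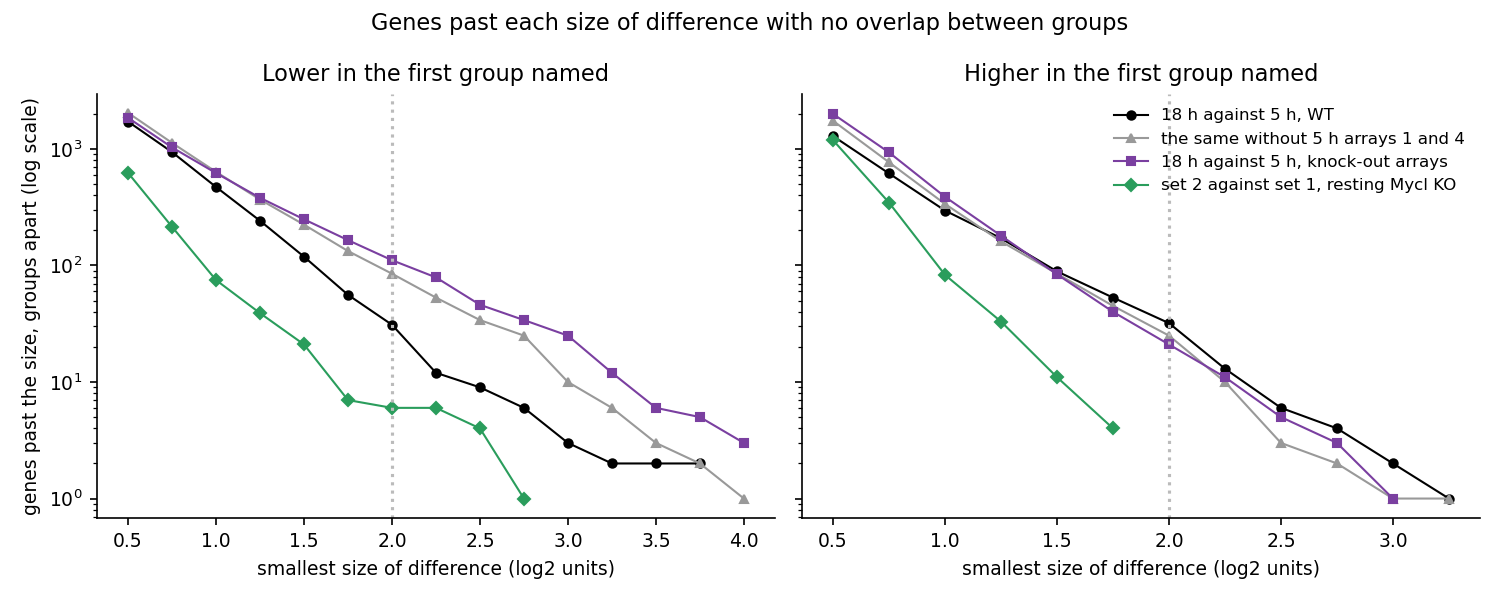
Number of genes (vertical, log scale) whose groups do not overlap and whose difference reaches each size in log2 units (horizontal), for lower and higher genes. Black circles are 18 h against 5 h in WT, grey triangles the same without 5 h arrays 1 and 4, purple squares the knock-out arrays of the same sets, and green diamonds 1 label in 2 sets. At 2 log2 units (dotted line) the WT counts are 31 lower and 32 higher, against 6 and 0 for a change of set alone.

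The same 2 sets hold knock-out arrays that share no array with the WT groups: 5 labelled Mycl KO at 5 h and 3 labelled Mxd1 KO at 18 h. They carry the same change of set, so agreement with them cannot tell time apart from set. Mycl read 0.31, 0.49, 3.41, 0.0075 and 0.64 on the arrays labelled Mycl KO and 3.92 ± 0.31 (SD, n = 5, lowest 3.50) in WT at 5 h. Array 3 of that group goes against its label, since its Mycl lies near the WT range. Mxd1 read 4.56 ± 0.12 (n = 3) in the arrays labelled Mxd1 KO and 4.85 ± 0.18 (n = 3) in WT at 18 h, with overlapping ranges, so the label of those arrays is unchecked. Between these knock-out arrays 21 genes were higher at 18 h by 2 log2 units (0.15%) and 111 lower (0.791%), together 0.941%. At 1 log2 unit 388 were higher (2.77%) and 621 lower (4.43%), together 7.19%. All 32 WT genes that were higher had the same sign there, 31 of them past 1 log2 unit without overlap and 10 past 2. All 31 WT genes that were lower also kept their sign, 31 past 1 log2 unit and 23 past 2. Without the array labelled Mycl KO that carried Mycl, a choice made after seeing the data, 21 genes were higher by 2 log2 units (0.15%) and 118 lower (0.841%), together 0.991%. At 1 log2 unit 423 were then higher (3.01%) and 627 lower (4.47%), together 7.48%. The 32 and 31 WT genes again all kept their sign, with 10 and 25 past 2. List medians moved by at most 0.15, and 1 changed sign, that of the B cell markers (0.02 to -0.01).

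Most interferon-stimulated genes lay below their 5 h level at 18 h, by an amount that depended on which 5 h arrays were counted. Of 44 interferon-stimulated genes tested, 41 lay below 0, with a median difference of -0.93 beside -0.0046 over all genes tested. The list median was -0.66 after quantile normalization, and the 10% of all genes with the highest level had a median of -0.28. By the 2-fold rule 7 of the 44 were lower (Slfn5, Samd9l, Ifit3b, Trim30a, Ifi205, Eif2ak2 and Ifi35) and 1 was higher, Ifi27l2a. The shares over all genes tested were 3.36% and 2.11%. Ifit3b was under the filter's level on every 18 h array and passed through 5 h arrays alone, so that choice fixed its direction. The median of the list over its genes was 2.29, 4.95, 4.94, 3.17 and 5.18 on 5 h arrays 1 to 5, and 3.08, 3.13 and 2.86 on 18 h arrays 1 to 3. Arrays 2, 3 and 5 of the 5 h group were alike and stood above all 18 h arrays, array 4 stood close to the 18 h arrays and array 1 below them. Resting WT arrays lay between 1.59 and 1.93. Without 5 h arrays 1 and 4, 37 of the 44 genes were lower by 2-fold, 16 of them by 4-fold, 0 were higher, and the median was -1.57.

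Mean levels at 18 h lay above rest, which was read from another set, for most of the list. All 44 genes were above their resting WT mean at 5 h and 38 at 18 h, and 35 of the 18 h means lay between rest and 5 h. Over all 14032 genes tested these counts were 6640, 6398 and 4509. The knock-out arrays, in which all 5 arrays of 5 h had list medians between 4.86 and 5.30, gave a median difference of -1.63, with 37 genes lower by 2-fold (-1.68 and 37 without array 3 of the Mycl KO label). The change of set alone gave 0.29 for this list. Bulk arrays of sorted cells cannot tell fewer responding cells apart from less transcript per cell.

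**Figure D2:**
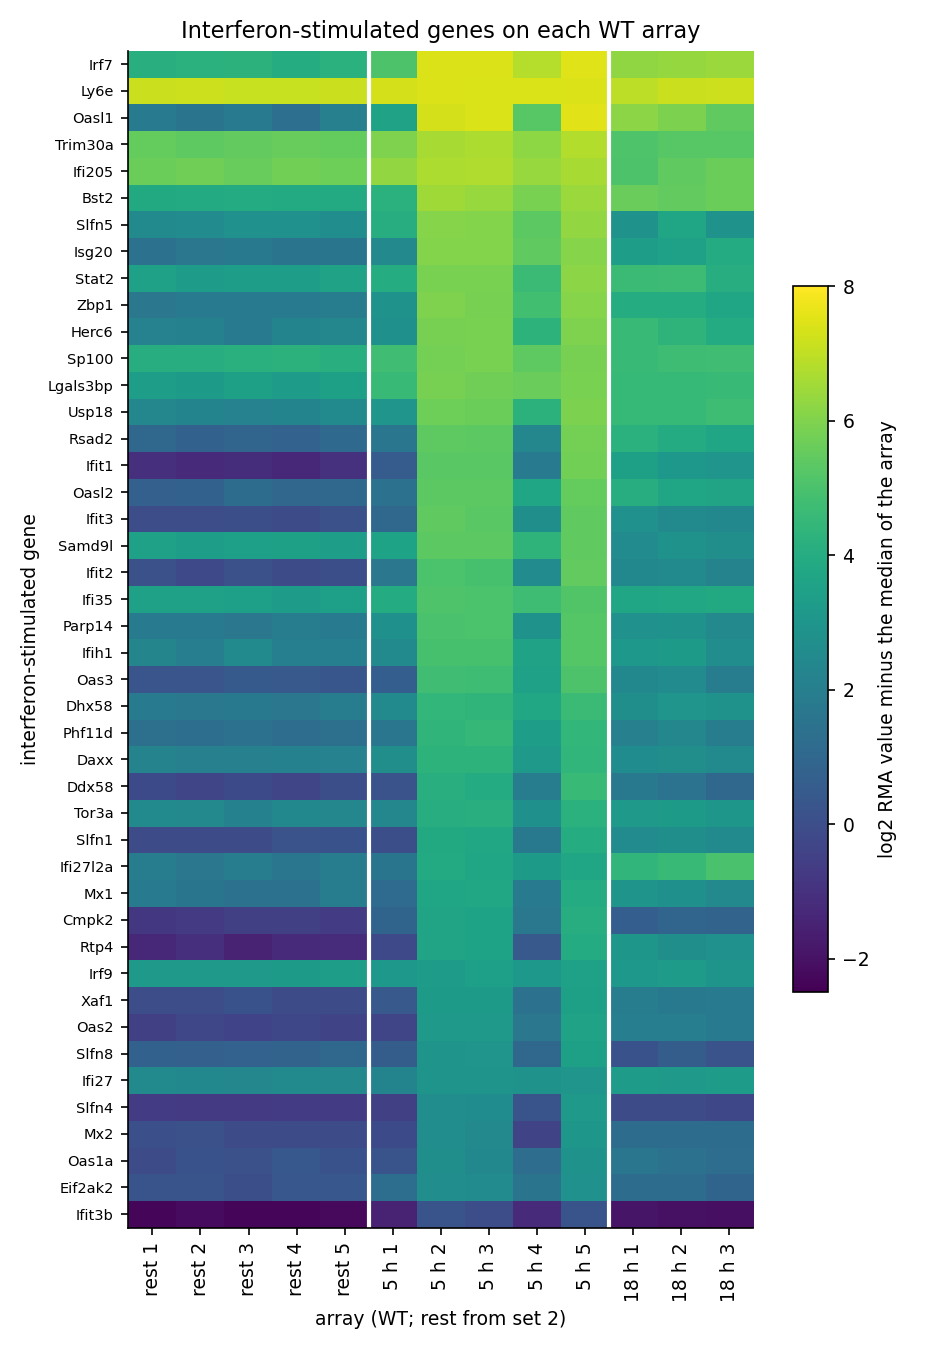
Log2 RMA values minus the array median (colour) of the 44 interferon-stimulated genes (rows, ordered by their mean on 5 h arrays 2, 3 and 5) on 5 resting, 5 poly IC 5 h and 3 poly IC 18 h WT arrays (columns; white lines part the groups). The 5 h arrays 2, 3 and 5 are brightest, array 1 is close to rest for many genes, and the 18 h arrays are intermediate, with list medians of 2.86 to 3.13.

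Ifit1 is a cytosolic protein that binds viral RNA lacking the host cap and is among the most inducible interferon genes. It read 0.57, 5.31, 5.29, 1.78 and 5.75 on the 5 h arrays and 3.46, 3.10 and 2.99 on the 18 h arrays. The 18 h values were even and fell inside the wide 5 h range, so the groups overlapped and the difference was -0.56 ± 1.08 (SE). Against arrays 2, 3 and 5 alone it was -2.27. Resting cells were at -1.15, far below the 18 h arrays.

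Slfn5, a Schlafen family member induced by interferon, kept apart on all arrays. It read 4.03, 6.09, 6.03, 5.36 and 6.29 at 5 h and 2.89, 3.66 and 2.84 at 18 h, a difference of -2.43 ± 0.49. Even the low array 1 of 5 h exceeded every 18 h array, and the 18 h mean of 3.13 was close to the resting mean of 2.67. Samd9l, an antiviral translation inhibitor, read 3.59, 5.37, 5.36, 4.34 and 5.43 at 5 h and 2.58, 2.88 and 2.69 at 18 h (-2.10 ± 0.38). Its 18 h mean of 2.72 lay below the resting mean of 3.42. Ifi27l2a, a small interferon-induced membrane protein, went the other way, with 1.57, 3.91, 3.73, 3.21 and 3.73 at 5 h and 4.41, 4.58 and 4.99 at 18 h (1.43 ± 0.46, and 0.87 without 5 h arrays 1 and 4).

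Interferon beta itself, the product of Ifnb1, stood above rest at 5 h and near it at 18 h. It read -0.09, 0.76, 0.63, 0.16 and 1.30 at 5 h and -1.24, -1.38 and -1.40 at 18 h, a difference of -1.89 ± 0.25 with no overlap, and the resting mean was -1.23. Ifnb1 was under the filter's level on every 18 h array and passed through the 5 h arrays alone, so that choice fixed its direction. Of 16 interferon ligands and receptor chains tested, 2 were lower by 2-fold, Ifnb1 and the receptor chain Ifnar1 (-1.08 ± 0.16), and 0 were higher. The shares over all genes tested were 3.36% lower and 2.11% higher. Among 19 genes of RNA sensing and of the induction of interferon, Trim25, the ubiquitin ligase of the RIG-I pathway, was lower by -2.08 ± 0.21. It read 3.79 to 4.58 at 5 h and 2.01 to 2.40 at 18 h. A change of set alone gave -1.05 for Trim25. The adaptor Myd88 was lower (-1.55 ± 0.24) and the TLR3 adaptor Ticam1 higher (1.01 ± 0.08), while the other 16 did not pass the 2-fold rule. The lower genes of this list were 6 instead of 2 without 5 h arrays 1 and 4.

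Of 26 feedback inhibitors 3 were lower by 2-fold (5 without 5 h arrays 1 and 4) and 0 higher, beside 3.36% and 2.11% of all genes tested. The largest was Tnip3, an A20-binding inhibitor of NF-kB signalling, at 0.85, 0.98, 1.12, -0.11 and 1.58 on the 5 h arrays and -1.63, -1.52 and -1.49 on the 18 h arrays (-2.43 ± 0.28). Its groups were far apart, but Tnip3 was under the filter's level on every 18 h array. It passed through the 5 h arrays alone, so that choice fixed its direction. The list median was -0.02 and turned to 0.04 with centring on the 75th percentile and to 0.19 after quantile normalization. Among 9 interferon-induced GTPases of the GBP and IRG families, Gbp7 was lower (-1.60 ± 0.46) and Gbp8 was not apart (0.81 ± 0.42). This list had a median of -0.28 over all arrays and -1.26 without 5 h arrays 1 and 4, where 5 members were lower by 2-fold instead of 1.

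The promoters of 4 of these genes are shown because the interferon response acts through a short element there. Each sequence holds the 250 bases upstream of the transcription start, 5′ to 3′ on the gene's strand, from RefSeq on GRCm38.p6. Capitals mark matches to GAAANNGAAA on either strand, the core of the interferon response element. Slfn5 lies on the plus strand at chr11:82951852-82952101, Ifit1 on the plus strand at chr19:34640639-34640888, Ifit3 on the plus strand at chr19:34583279-34583528 and Cxcl10 on the minus strand at chr5:92348890-92349139.
Slfn5: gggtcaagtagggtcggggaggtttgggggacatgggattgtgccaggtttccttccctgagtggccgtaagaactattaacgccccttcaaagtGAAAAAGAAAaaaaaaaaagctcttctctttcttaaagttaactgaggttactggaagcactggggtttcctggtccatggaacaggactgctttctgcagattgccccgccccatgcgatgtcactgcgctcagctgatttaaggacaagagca
Ifit1: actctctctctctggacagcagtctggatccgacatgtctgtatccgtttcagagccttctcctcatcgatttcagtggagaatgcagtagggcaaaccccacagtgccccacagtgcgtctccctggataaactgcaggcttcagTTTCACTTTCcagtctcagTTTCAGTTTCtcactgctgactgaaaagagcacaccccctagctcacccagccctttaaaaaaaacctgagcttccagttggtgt
Ifit3: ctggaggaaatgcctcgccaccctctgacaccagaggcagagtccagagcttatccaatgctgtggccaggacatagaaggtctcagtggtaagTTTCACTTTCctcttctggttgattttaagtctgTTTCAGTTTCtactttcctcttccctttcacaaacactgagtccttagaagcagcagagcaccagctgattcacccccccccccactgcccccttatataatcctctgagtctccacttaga
Cxcl10: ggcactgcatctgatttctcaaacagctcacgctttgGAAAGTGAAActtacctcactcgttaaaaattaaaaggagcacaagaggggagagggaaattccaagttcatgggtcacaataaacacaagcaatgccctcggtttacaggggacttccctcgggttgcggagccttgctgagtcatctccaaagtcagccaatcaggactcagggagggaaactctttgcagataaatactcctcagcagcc
Ifit1 and Ifit3 hold 2 matches each, the nearest to the start beginning at -85 and -122, and Slfn5 and Cxcl10 hold 1 match each, at -155 and -213. Promoters were matched by symbol for 11083 of the 14032 genes tested, and 354 of them (3.19%) held a match, against 2.98% of all 32851 promoters in the table. Among genes lower by 2-fold at 18 h the share was 27 of 386 (6.99%), and among genes higher by 2-fold it was 7 of 218 (3.21%). Among genes lower by 4-fold without 5 h arrays 1 and 4 it was 12 of 64 (18.8%). Those arrays were set apart by their low Ifit1, a choice that favours interferon genes among the 64, so that share tests nothing. Over all arrays 1 of 25 (4%) genes with a promoter and a large decrease held a match, Slfn5. Among genes with a promoter and a large increase 2 of 21 (9.52%) did. These shares describe letters in a window, and no match says only that the letters are not there.

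Most of the largest decreases lay outside the interferon list. The 12 named for size were Il1r2, Ngp, Plagl1, Car1, Lcn2, Ms4a6d, Rasgef1b, Ms4a6c, Ifitm1, Osgin2, Slfn5 and Tnip3, all large without 5 h arrays 1 and 4 as well, and Slfn5 alone of them is a member of that list. Ngp, Lcn2, Ms4a6d, Osgin2 and Tnip3 were under the filter's level on every 18 h array. They passed through the 5 h arrays alone, so that choice fixed their direction. Il1r2, the decoy receptor for interleukin 1, read 3.92, 3.12, 2.93, 3.99 and 2.98 at 5 h and -0.57, -0.22 and -0.41 at 18 h. The groups were far apart, with a difference of -3.79 ± 0.25, but a change of set alone moved Il1r2 by -2.94. Il1r2 was the 1 gene of the 31 for which set alone reached 4-fold in either direction. At 1 log2 unit 6 of the 31 reached that size for set alone, among them Arih2 at -1.92, beside its own difference of -2.06.

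Plagl1, a zinc finger transcription factor, read 2.07, 4.04, 4.13, 2.18 and 4.61 at 5 h and 0.26, 0.28 and 0.31 at 18 h (-3.12 ± 0.53). The 18 h arrays were nearly equal, 5 h arrays 1 and 4 were lower than the rest of their group, and set alone gave -1.57. The Ms4a cluster of tetraspan membrane proteins on chromosome 19 gave 3 of the 31 genes, Ms4a6d, Ms4a6c and Ms4a6b. Ms4a6d read 0.15, 1.23, 1.31, 1.17 and 1.48 at 5 h and -1.73, -1.77 and -1.69 at 18 h (-2.80 ± 0.24), and Ms4a6c read 3.17, 4.32, 4.33, 4.35 and 4.44 at 5 h and 1.33, 1.73 and 1.75 at 18 h (-2.52 ± 0.27). In both genes array 1 of 5 h stood below its group and still above the 18 h arrays, and the resting means, -2.08 and 1.66, were near the 18 h level. Ms4a4c of the same family, at -2.55, was not counted, since 5 h array 1 (0.95) fell below 18 h array 3 (0.98).

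Ifitm1, an interferon-induced membrane protein that restricts virus entry, read 3.47, 4.28, 4.35, 3.86 and 4.36 at 5 h and 1.43, 1.50 and 1.75 at 18 h (-2.51 ± 0.20). It was apart on every array and lay below its resting mean of 2.54 at 18 h. Casp4, the mouse caspase 11, which senses cytosolic lipopolysaccharide, read 2.85, 4.51, 4.64, 2.91 and 4.75 at 5 h and 1.81, 1.83 and 1.83 at 18 h (-2.11 ± 0.43). It was higher than its resting mean of 0.77 at both times. Of 25 apoptosis and survival genes 4 were lower by 2-fold (Casp4, Casp8, Apaf1 and Pmaip1) and 0 higher, beside 3.36% and 2.11% of all genes tested. Without 5 h arrays 1 and 4, 7 of the 25 were lower. Il12rb2, a chain of the interleukin 12 receptor, was lower by 4-fold, with 1.40 to 3.57 at 5 h and 0.13 to 0.59 at 18 h (-2.21 ± 0.48).

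Some decreases ended below the resting level. Rasgef1b, an exchange factor for Ras-like proteins, read 2.89 to 3.70 at 5 h and 0.64, 1.36 and 0.37 at 18 h (-2.58 ± 0.33), against 3.14 at rest. Hsph1, a heat shock protein of the HSP110 family, read 3.73, 5.01, 5.22, 4.15 and 5.19 at 5 h and 2.33, 2.80 and 2.79 at 18 h (-2.02 ± 0.34), against 5.78 at rest. The 18 h values were the lowest of the 3 conditions for these genes, and set alone gave -1.65 for Rasgef1b and 0.70 for Hsph1. Ptprc, the leukocyte antigen CD45, read 5.44 to 5.77 at 5 h and 3.26 to 3.84 at 18 h (-2.08 ± 0.18, and -1.99 without 5 h arrays 1 and 4, just short of the rule), and was at 4.87 at rest. Over the 31 lower genes the resting mean was nearer to the 18 h than to the 5 h level in 19, and within 1 log2 unit of the 18 h level in 16.

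**Figure D3:**
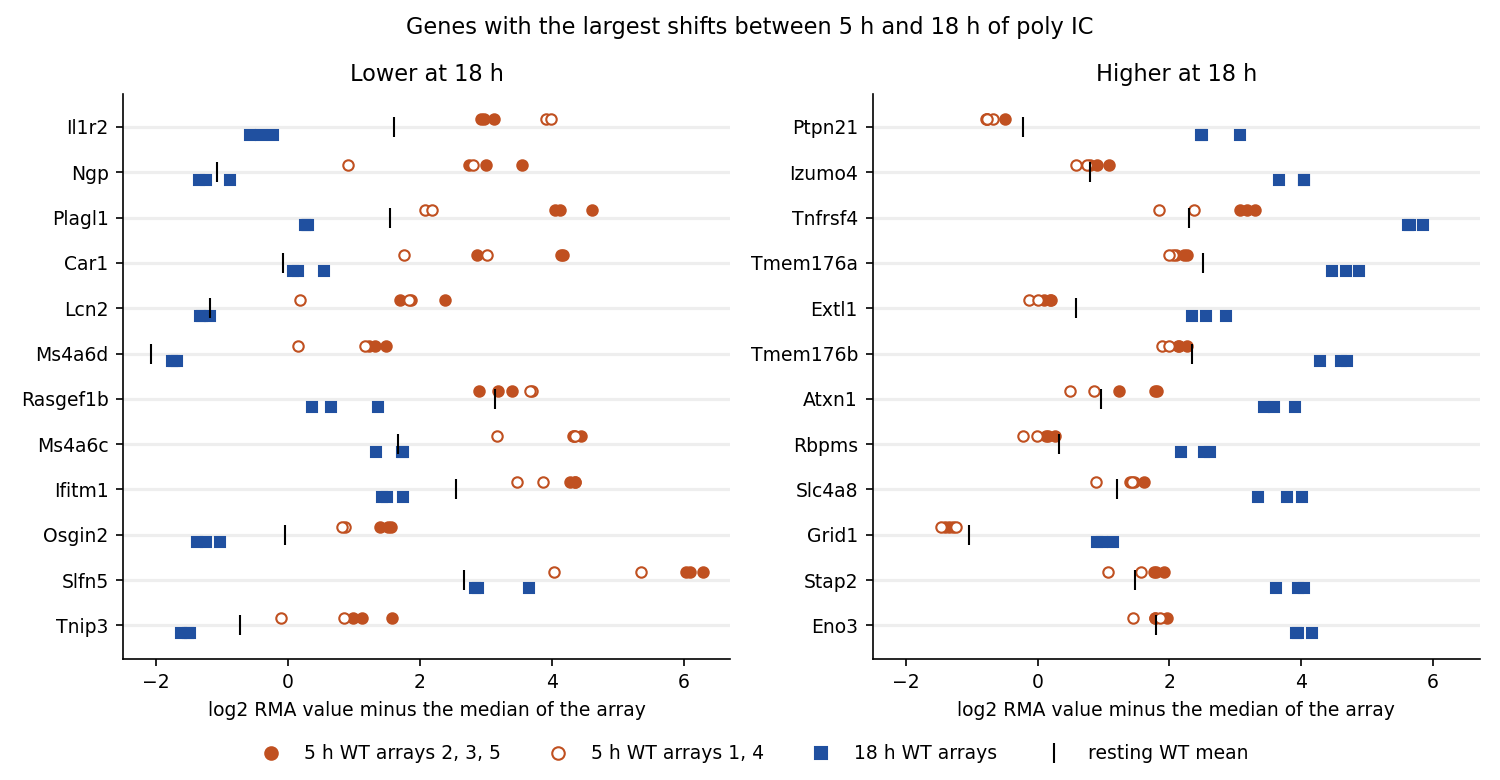
Log2 RMA values minus the array median (horizontal) of the 12 genes with the largest decrease and the 12 with the largest increase at 18 h (rows). Filled circles are 5 h arrays 2, 3 and 5, open circles 5 h arrays 1 and 4, squares the 3 arrays of 18 h, and bars the mean of resting WT arrays from another set. Squares and circles do not overlap in any row, and in all 12 rows of the increases the resting mean is nearer to the 5 h than to the 18 h arrays.

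Transcripts of neutrophil granules were present at 5 h and near their resting level at 18 h. Of 12 neutrophil markers listed, 8 passed the filter and 4 did not (Ly6g, Csf3r, Cxcr2 and Mmp8). Ngp, Lcn2 and Retnlg were under the filter's level on every 18 h array and passed through the 5 h arrays alone, so that choice fixed their direction. The 5 that reached that level on all 18 h arrays were S100a8 (-1.99), S100a9 (-2.05), Mpo (-1.76), Elane (-1.67) and Camp (-2.22), each lower by at least 2-fold without overlap. Over all 12 listed genes, whatever their level, 7 were lower by 2-fold, beside 3.36% of all genes tested. The median difference of the 12 was -1.72. Ngp, a granule protein, read 0.91, 3.00, 3.55, 2.80 and 2.75 at 5 h and -1.36, -0.88 and -1.25 at 18 h (-3.76 ± 0.47). Lcn2, an iron-scavenging lipocalin that inflammation can also raise in other cells, read 0.18, 1.86, 2.38, 1.83 and 1.69 at 5 h and -1.31, -1.19 and -1.34 at 18 h (-2.87 ± 0.37). Array 1 of 5 h was the lowest of its group for both genes, and array 4, which also had low interferon genes, was not. The median over the 12 genes was 0.09, 1.15, 2.23, 1.60 and 1.76 on 5 h arrays 1 to 5, between -1.18 and -1.01 at 18 h and between -1.0 and -0.83 at rest.

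The knock-out arrays had a median of -1.49 over the 12 markers, with 6 lower by 2-fold (-1.61 and 6 without array 3 of the Mycl KO label), while set alone gave 0.08. Summed on the linear scale, the 8 markers that passed the filter reached 3.61 to 5.60 log2 units on 5 h arrays and 2.48 to 2.78 on 18 h arrays. Ly6g, which defines mature neutrophils, stayed under the filter at both times, at percentiles 10.4 to 13.5 at 5 h and 6.94 to 8.49 at 18 h. The part these cells might play in other decreases was not tested. Car1, a carbonic anhydrase of red cell precursors, was also lower, with 1.76, 2.86, 4.17, 3.01 and 4.14 at 5 h and 0.08, 0.54 and 0.15 at 18 h (-2.93 ± 0.47), and 3 of 3 erythroid markers lay below 0 (median -0.60, 0 past 2-fold). Without 5 h arrays 1 and 4, 1 erythroid marker was lower by 2-fold, Slc4a1 (-1.15).

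**Figure D4:**
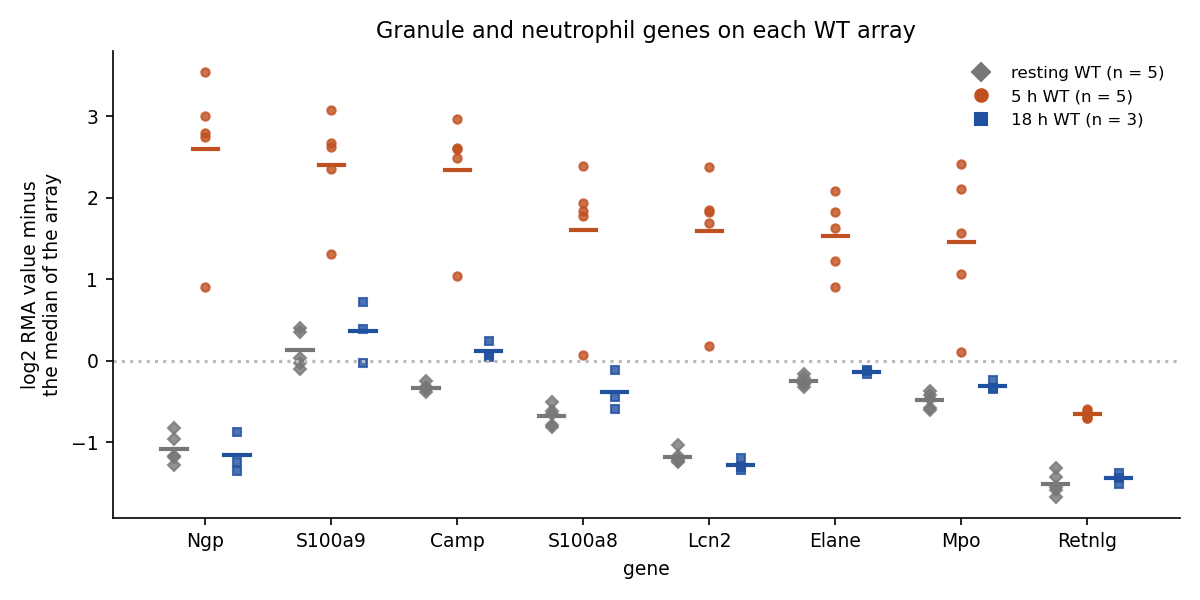
Log2 RMA values minus the array median (vertical) of the 8 neutrophil markers that passed the filter (horizontal) on 5 resting (grey diamonds), 5 poly IC 5 h (orange circles) and 3 poly IC 18 h (blue squares) WT arrays; short lines are means. The 5 h arrays are above the 18 h arrays in 7 genes by at least 2-fold, and the 18 h arrays lie near rest.

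The lists of other cells also held markers past the 2-fold rule, which 2.11% (higher) and 3.36% (lower) of all genes tested passed. Of 10 cDC2 markers 1 was higher by 2-fold, Esam (1.05 ± 0.13, and 0.89 without 5 h arrays 1 and 4), and 0 lower. Of 15 monocyte and macrophage markers 2 were higher (Treml4 and C1qc) and 2 lower (Cd14 and Ccr2), of 11 T and natural killer cell markers 1 was lower (Klrd1, -1.13 ± 0.12), and of 8 B cell markers 0 passed. Without 5 h arrays 1 and 4, 1 monocyte and macrophage marker was higher and 3 lower, and 2 T and natural killer cell markers were lower. Set alone gave -2.55 for Cd14, more than its difference of -1.76. The 9 plasmacytoid markers held 1 increase, Spib. The part of any of these cells in the differences was not tested.

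Genes that were higher at 18 h included molecules by which dendritic cells and T cells signal to each other. Tnfrsf4, which encodes OX40, a costimulatory receptor of the TNF receptor family best known on activated T cells, read 1.85, 3.06, 3.18, 2.37 and 3.30 at 5 h and 5.85, 5.62 and 5.64 at 18 h. The groups were far apart, with a difference of 2.95 ± 0.29, and the 5 h mean of 2.75 was near the resting mean of 2.29. Its ligand gene Tnfsf4 was lower (-1.23 ± 0.23). Icos, another costimulatory receptor of T cells, read 1.14 to 1.90 at 5 h and 3.39 to 3.92 at 18 h (2.06 ± 0.21, and 1.84 without 5 h arrays 1 and 4, short of the rule), and its ligand Icosl was not apart (0.56 ± 0.23). Ccl19, a ligand of CCR7 that mature dendritic cells make, read 0.48, 1.00, 0.86, 0.84 and 0.93 at 5 h and 3.04, 2.73 and 3.19 at 18 h (2.17 ± 0.16). For all 3 genes that were higher, set alone gave between 0.07 and 0.67.

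The neighbouring genes Tmem176a and Tmem176b, ion channels of dendritic cell endosomes, moved together. Tmem176a read 2.06, 2.10, 2.26, 1.99 and 2.23 at 5 h and 4.88, 4.47 and 4.68 at 18 h (2.55 ± 0.13). Tmem176b read 1.88, 2.15, 2.12, 1.99 and 2.26 at 5 h and 4.70, 4.29 and 4.60 at 18 h (2.45 ± 0.14). Both were even within each time, without a low array at 5 h, and both were at their 5 h level in resting cells (2.51 and 2.35). Spib, an Ets factor of B cells and plasmacytoid dendritic cells, read -1.31, -0.29, -0.12, -0.93 and -0.22 at 5 h and 1.88, 1.55 and 1.68 at 18 h (2.28 ± 0.25, and 1.91 without 5 h arrays 1 and 4). The defining plasmacytoid marker Siglech stayed between percentiles 43.7 and 47.6 on all 8 arrays.

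The largest increases were in genes outside the lists. Ptpn21, a protein tyrosine phosphatase, read -0.68, -0.78, -0.77, -0.77 and -0.49 at 5 h and 3.07, 2.49 and 2.48 at 18 h, a difference of 3.38 ± 0.20. Izumo4, a relative of the sperm fusion protein IZUMO1, read 0.59, 1.08, 0.90, 0.75 and 0.79 at 5 h and 4.04, 3.66 and 4.05 at 18 h (3.10 ± 0.15). In both genes the 5 h arrays agreed closely, arrays 1 and 4 included, and rest was at the 5 h level (-0.22 and 0.80). Grid1, a glutamate receptor subunit, was low at 5 h, with -1.47 to -1.23 at 5 h and 0.90 to 1.14 at 18 h (2.35 ± 0.08). Every 5 h array was under the filter's level for Grid1, which passed through the 18 h arrays alone, so that choice fixed its direction. Asprv1, a retroviral-like aspartic protease, depended more on the 5 h arrays, with 1.52, 4.02, 4.07, 2.44 and 4.05 at 5 h and 6.29, 5.90 and 5.93 at 18 h (2.82 ± 0.54, and 2.00 without arrays 1 and 4, just short of the rule).

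The other named increases were Extl1, a glycosyltransferase of heparan sulfate synthesis (2.51 ± 0.16), Atxn1, a chromatin-associated repressor (2.41 ± 0.29), the RNA-binding protein Rbpms (2.38 ± 0.16), the bicarbonate transporter Slc4a8 (2.35 ± 0.23), the adaptor Stap2 (2.24 ± 0.20) and the muscle enolase Eno3 (2.24 ± 0.12). Pygl, the liver glycogen phosphorylase, was also higher (2.23 ± 0.17). Of the 32 higher genes, 32 were protein coding and 2 stood in any of the gene lists, Tnfrsf4 and Spib. The resting mean was nearer to the 5 h than to the 18 h level in all 32, and within 1 log2 unit of it in 31. Set alone reached 1 log2 unit for 1 of the 32, Zfp60 (1.15), a zinc finger protein with a difference of 2.04 ± 0.15.

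Il12b and several chemokines were lower at 18 h, while the cytokines as a list had no settled direction. Il12b, the p40 chain of interleukin 12 that directs T cells to make interferon gamma, read 4.37, 5.53, 5.45, 5.08 and 5.53 at 5 h and 3.58, 3.81 and 3.18 at 18 h, a difference of -1.67 ± 0.29 without overlap. Its resting mean was 4.68, and set alone gave -0.87. Of 21 cytokines 2 were lower by 2-fold, Il12b and Il18 (-1.21 ± 0.28), and 0 higher, with 10 genes above 0 and 11 below. The median of -0.02 turned to 0.05 with centring on the 75th percentile, and without 5 h arrays 1 and 4 it was -0.31 with 6 genes lower. Of 24 chemokines and receptors 8 were lower (Ccl3, Ccl4, Cxcl2, Cxcl9, Cxcl11, Ccr2, Cxcr4 and Cxcr5) and 0 higher, with a median of -0.57. The chemokine Ccl19, higher by 4-fold, was not a member of this list. Beside the counts of cytokines and of chemokines, 3.36% of all genes tested were lower and 2.11% higher.

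Cxcl9, which draws CXCR3-bearing T cells, read 5.60, 6.49, 6.45, 6.14 and 6.56 at 5 h and 4.33, 4.66 and 5.02 at 18 h (-1.58 ± 0.27). Every 5 h array was above every 18 h array. Cxcl10, a second ligand of CXCR3, read 2.83, 5.21, 5.29, 2.79 and 5.51 at 5 h and 2.62, 2.64 and 3.43 at 18 h. Arrays 1 and 4 lay within the 18 h range, and the difference was -1.43 ± 0.68 with all arrays and -2.44 without these 2. Ccl3, an inflammatory chemokine, read 2.78 to 3.61 at 5 h and 1.09 to 2.44 at 18 h (-1.58 ± 0.42), with a higher resting mean of 4.41. Ccl5, a chemokine for T cells, kept its level against 5 h arrays 2, 3 and 5, with 2.30, 5.54, 5.69, 3.88 and 5.83 at 5 h and 5.76, 5.42 and 5.66 at 18 h (0.97 ± 0.69, and -0.07 without arrays 1 and 4).

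Some costimulatory genes were lower at 18 h. Of 26 tested, 7 were lower by 2-fold (Cd86, Tnfsf4, Ido1, Havcr2, Cd80, Slamf7 and Btla) and 0 higher, beside 3.36% and 2.11% of all genes tested. In this list 21 lay below 0, with a median of -0.67 (-0.53 after quantile normalization). The median was -0.28 for the 10% of all genes with the highest level. Without 5 h arrays 1 and 4, 13 of the 26 were lower by 2-fold and the list median was -1.03. The costimulatory receptors Tnfrsf4 and Icos, both higher by 4-fold over all arrays, were not members of this list. Cd86, a ligand of CD28 on T cells, read 6.55, 6.83, 6.74, 6.45 and 6.84 at 5 h and 4.61, 5.08 and 4.86 at 18 h (-1.83 ± 0.15). Cd86 was nearly as high on the 5 h arrays with low interferon genes as on the others, at 18 h it lay below its resting mean of 5.73, and set alone gave -0.05. Cd40, the receptor for help from T cells, followed the interferon pattern instead, with 4.10, 5.81, 5.98, 4.33 and 6.01 at 5 h and 4.71, 4.52 and 4.46 at 18 h (-0.69 ± 0.43), above the resting mean of 3.03 on every array.

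Maturation genes did not share that course. Of 31 genes of migration and maturation, 7 were higher by 2-fold (Tnfrsf4, Nudt17, Anxa3, Cd63, Il15ra, Tnfrsf9 and Arhgap31) and 1 lower, Ramp3. The shares over all genes tested were 2.11% and 3.36%. Set alone gave -2.57 for Ramp3, larger than its own -1.20. Without 5 h arrays 1 and 4, 5 of the 31 were higher, with Il15ra and Arhgap31 no longer among them, and 4 lower. The median was 0.25 over all arrays, -0.18 without 5 h arrays 1 and 4 and -0.38 in the knock-out arrays, so the list has no settled direction. Ccr7, the receptor that guides mature dendritic cells to T cell zones, read 5.55, 7.0, 7.02, 5.81 and 7.09 at 5 h and 6.77, 6.65 and 6.48 at 18 h (0.14 ± 0.35). The 18 h values lay between the low and the high 5 h arrays, and above the resting mean of 5.53. Il15, which sustains CD8 T cells, read 1.10, 3.64, 3.76, 1.93 and 3.91 at 5 h and 4.05, 3.75 and 3.65 at 18 h (0.95 ± 0.58, and 0.05 without 5 h arrays 1 and 4), and was at 1.46 at rest. Its 18 h values stood close to 5 h arrays 2, 3 and 5, and 1 of them was above every 5 h array.

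Counts past the 2-fold rule in the MHC lists were near or under the 5.47% of all genes tested, so they do not set these lists apart. Of 20 genes of the MHC class I pathway 0 passed it in either direction (1 was lower without 5 h arrays 1 and 4), with a median of -0.16 that turned to 0.11 after quantile normalization. Of 13 class II genes 1 was higher, Rfxank, a subunit of the RFX complex that drives class II promoters (1.00 ± 0.07). The class II median was -0.33, and -0.10 after quantile normalization, with -0.28 for the 10% of all genes with the highest level. Of 17 lectins and uptake receptors 3 were lower (6 without 5 h arrays 1 and 4) and 0 higher (median -0.35), beside 3.36% and 2.11% of all genes. The largest was Timd4, a receptor for phosphatidylserine on dying cells, with 2.62, 1.81, 1.84, 1.90 and 1.88 at 5 h and -0.22, 0.05 and 0.14 at 18 h (-2.02 ± 0.19, and -1.85 without 5 h arrays 1 and 4). Set alone gave -1.0 for Timd4.

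A minority of cDC1 identity genes passed the 2-fold rule, a share above that of all genes tested. Of 28, 1 was higher, Batf3, and 5 were lower (Nfil3, Hepacam2, Ifi205, Cd36 and Gcsam), beside 2.11% and 3.36% of all genes. The median was -0.43, with -0.28 for the 10% of all genes with the highest level. It was -0.17 after quantile normalization, -0.03 without 5 h arrays 1 and 4 and 0.23 in the knock-out arrays. Batf3, which keeps up Irf8 in cDC1, read 4.10, 3.85, 3.79, 4.17 and 3.74 at 5 h and 5.19, 5.02 and 5.33 at 18 h (1.25 ± 0.13). Nfil3, which opens the cDC1 fate in progenitors, read 4.67, 4.52, 4.49, 4.43 and 4.63 at 5 h and 3.08, 2.96 and 3.14 at 18 h (-1.49 ± 0.07). Both were even within each time, and set alone gave 0.51 for Batf3 and -1.16 for Nfil3. Irf8, the lineage factor of cDC1, was at 0.32 ± 0.13, the chemokine receptor Xcr1 at -0.34 ± 0.27, Tlr3 at -0.08 ± 0.32, Cd8a at -0.53 ± 0.11 and Clec9a, which senses dead cells, at -0.87 ± 0.19.

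The MYC and MAX network had 0 of 13 genes past 2-fold (1 lower without 5 h arrays 1 and 4), beside 5.47% of all genes tested. Mycl, the MYC family member of dendritic cells, read 4.14, 3.85, 3.50, 4.30 and 3.81 at 5 h and 3.05, 3.79 and 3.43 at 18 h, overlapping, with a difference of -0.50 ± 0.26. Mxd1, which competes with MYC proteins for MAX, read 3.34, 4.98, 4.93, 3.63 and 5.26 at 5 h and 5.02, 4.85 and 4.66 at 18 h (0.42 ± 0.41). On 5 h arrays 2, 3 and 5 Mxd1 was already at its 18 h level, on arrays 1 and 4 it was between that level and the resting mean of 2.33. Max, the shared partner, was at -0.99 ± 0.17, Mxd4 at 0.64 ± 0.10 and Myc at 0.06 ± 0.45, with 0.36 to 1.86 for Myc at 18 h.

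A part of the cell cycle genes was lower at 18 h. Of 49 tested, 11 were lower by 2-fold (among them Kif11, Top2a, Nusap1 and Mki67) and 0 higher, beside 3.36% and 2.11% of all genes tested. In this list 43 lay below 0, with a median of -0.71. The list median was -0.50 without 5 h arrays 1 and 4, -0.22 in the knock-out arrays and 0.17 for set alone. Kif11, a motor of the mitotic spindle, read 2.69, 2.24, 1.86, 1.97 and 2.05 at 5 h and -0.04, 0.28 and 0.30 at 18 h (-1.98 ± 0.18). Its groups were far apart and its resting mean, 0.83, lay between them. The proliferation marker Mki67 was at -1.61 ± 0.26 and the DNA topoisomerase Top2a at -1.68 ± 0.18.

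In the lists of growth and protein synthesis the counts past 2-fold were near or under the 5.47% of all genes tested. Of 43 cytosolic ribosomal proteins 0 passed 2-fold, but 41 lay below 0, with a median of -0.47. It was -0.44 without 5 h arrays 1 and 4, -0.27 in the knock-out arrays, -0.15 after quantile normalization and 0.11 for set alone. These are bright genes, and the median difference of the 10% of all genes with the highest level was -0.28. The other lists did not keep their direction. Of 56 ribosome biogenesis genes 2 were lower, Tsr1 and Ddx10 (0 without 5 h arrays 1 and 4), with a median of -0.26 that was 0.08 without these arrays and 0.47 in the knock-out arrays. Tsr1 was at -1.26 ± 0.37 here and 0.26 in the knock-out arrays. Of 36 translation factors and tRNA synthetases 1 was lower, Eprs (-1.05 here and -0.66 without 5 h arrays 1 and 4), with a list median of -0.45 and 0.16 in the knock-out arrays. Odc1, the first enzyme of polyamine synthesis, was lower, with 4.60 to 4.76 at 5 h and 3.20 to 3.42 at 18 h (-1.37 ± 0.07), and set alone gave -1.0.

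Sterol metabolism leaned the other way. Of 23 genes tested 5 were higher by 2-fold, Abcg1, Tm7sf2, Mvd, Fdps and Fdft1, and 1 was lower, Ch25h. The shares over all genes tested were 2.11% and 3.36%. In this list 18 lay above 0, with a median of 0.44. The list median was 0.50 without 5 h arrays 1 and 4, 0.44 in the knock-out arrays and -0.06 for set alone. Ch25h, the interferon-induced enzyme that makes 25-hydroxycholesterol, a brake on sterol synthesis, read -0.23, 0.57, 0.41, 0.07 and 0.85 at 5 h and -1.28, -1.24 and -1.25 at 18 h (-1.59 ± 0.19). Its 18 h values were near the resting mean of -1.02. All of them were under the filter's level, so Ch25h passed through the 5 h arrays alone and that choice fixed its direction. Fdps, which makes farnesyl pyrophosphate, was at 1.16 ± 0.13 and Mvd, the mevalonate decarboxylase, at 1.23 ± 0.12. Abcg1, which exports cholesterol, read 2.88, 3.31, 3.54, 2.65 and 3.59 at 5 h and 5.04, 4.85 and 4.55 at 18 h (1.62 ± 0.23), and set alone gave 1.05.

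The counts of the remaining lists stand beside 2.11% higher and 3.36% lower by 2-fold over all genes tested. Of 24 lysosomal genes 3 were higher, with Gaa, the acid glucosidase of lysosomes, at 1.50 ± 0.10, Cstb at 1.34 ± 0.17 and Ctsd at 1.27 ± 0.13. Of 18 glycolysis genes 1 was lower, the phosphofructokinase Pfkp (-1.64 ± 0.20), and of 47 oxidative phosphorylation genes 1 was lower, Sdha (-1.03 ± 0.17). Of 30 genes of the unfolded protein and ATF4 response 1 was lower, Atf6 (-1.02 ± 0.24). These counts were near the share of all genes, so they do not set these lists apart. Of 28 NF-kB and AP-1 factors 1 was higher, Batf3, and 1 lower, Fosl2 (-1.22 ± 0.22, with -1.27 for set alone). Of 28 immediate early genes, which also answer to tissue dissociation, 3 were higher (Rhob, Jun and Egr1) and 3 lower (Hsph1, Fosl2 and Nr4a3), and set alone moved Rhob, Jun and Egr1 by 1.97, 1.91 and 1.51, more than their own 1.69, 1.33 and 1.24. When 5 h arrays 1 and 4 were left out, the differences of Sdha (-0.95), Atf6 (-0.85) and Fosl2 (-0.97) fell short of 2-fold, as did those of Ccr2, Cxcr4, Havcr2, Btla, Hepacam2, Gcsam and C1qc, while 2 glycolysis genes, 2 lysosomal genes and 2 NF-kB and AP-1 factors were lower. The glycolysis gene Aldoa (1.03) and the unfolded protein gene Sdf2l1 (1.17) were then higher by 2-fold.

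**Figure D5:**
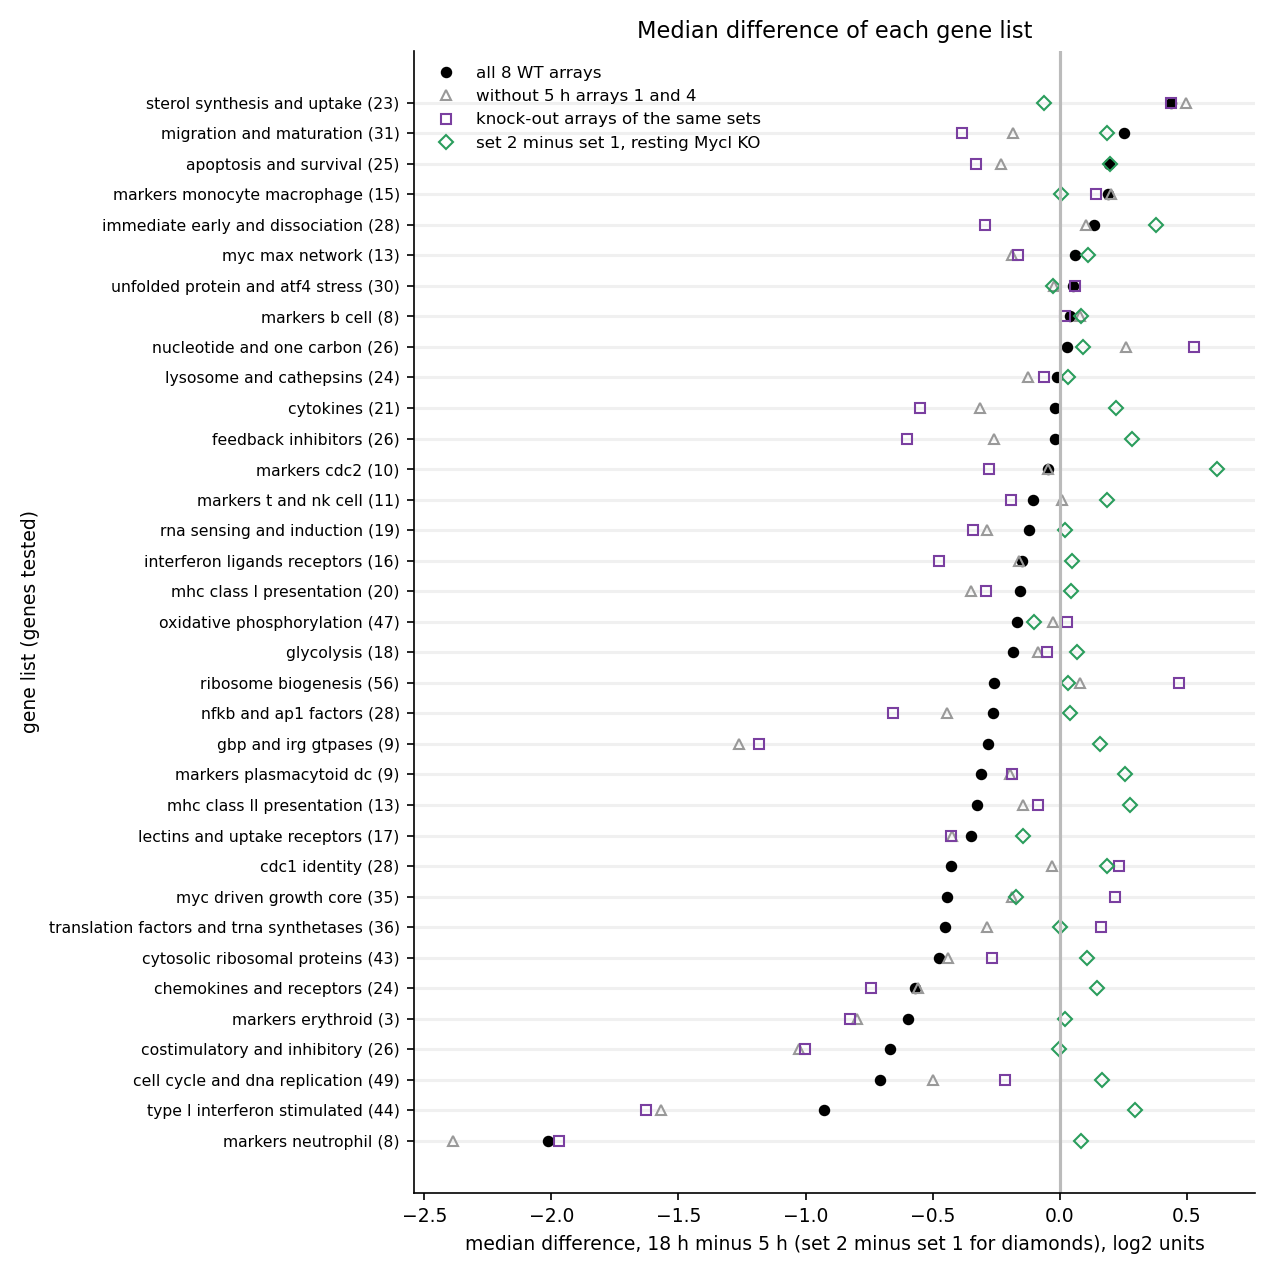
Median difference of each gene list in log2 units (horizontal; genes tested in brackets). Filled circles are 18 h minus 5 h over all 8 WT arrays, triangles the same without 5 h arrays 1 and 4, squares the knock-out arrays of the same sets, and diamonds set 2 minus set 1 in resting Mycl KO cells. The neutrophil markers that passed the filter (-2.02) and interferon-stimulated genes (-0.93) are the lowest and sterol genes (0.44) the highest, while migration and maturation genes change sign between circle and triangle.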

How the data were processed

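Expression was measured on Affymetrix arrays. The authors deposited log2 values made with the Affymetrix Expression Console and RMA, per the submitters' processing notes; the sources used here give no version or genome build. The platform annotation gave 1 gene symbol to 21789 of 35556 clusters and several to 1621, and did not name 12146. Genes on X and Y (748) or without a chromosome (83) were left out, and for 953 of the other 19108 genes the brightest of several clusters was taken. Each array was centred on the median of all its clusters, named or not, so a value of 0 is that median. Genes at or above the 30th percentile on at least 3 of the 8 arrays were tested. A gene under that level on every array of 1 group passed through the other group alone, which fixed its direction. A large shift is a difference of 2 log2 units (4-fold) with no overlap between groups. Differences are 18 h minus 5 h, with a standard error (SE) from the 2 group SDs (n = 3 and n = 5). Spread between arrays may be technical. The number of arrays limits the precision.

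Members and the 36 gene lists were chosen with earlier results of these data known. Genes were named by rule: the 12 largest shifts in each direction that also passed without 5 h arrays 1 and 4, in each list the large shifts (the 3 largest each way where over 6) or else the most extreme member each way, and a list of key genes. Further members of a list, and Asprv1, Ccl19, Icos, Il12rb2, Ms4a6b, Ms4a4c, Ptprc, Pygl and Zfp60, were named after their values were seen. The counting was tested on simulated data. Python 3.11.15, pandas 2.3.3 and numpy 2.4.6 were used.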

Additional observations from a re-analysis of the deposited data

Results flagged for a closer look

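In 6 of 94 groups of 5 h values, 1 for each named gene, 1 array stood apart from the other 4 by most of the group's range, and chance alone gives about 1 in 20. All 6 were array 1 of the 5 h group. It was the lowest for Ms4a6d (0.15), Ms4a6c (3.17), Slc4a8 (0.89), Camp (1.05) and Cd8a (4.20), and the highest for Timd4 (2.62). For Ms4a6d, Ms4a6c, Slc4a8, Camp and Timd4 the value stayed outside the 18 h range, and for Cd8a it came close to the 18 h arrays, which read 4.05, 4.16 and 4.09.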

How the results depend on the processing

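Of 94 named differences, 81 kept their sign under all 15 alternatives run for them, among them every large shift of these 94, and 13 did not (Ifng, Il15, Ccl5, Icosl, H2-Ob, Tsr1, Cd22, Ccr7, Mxd1, Mycl, Myc, Xcr1 and Tlr3, none of them a large shift). Of 35 list medians 17 kept their sign. The 32 higher genes were 20 with all 10 arrays of 5 h and all 6 of 18 h, 21 in the knock-out arrays with or without array 3 of the Mycl KO label and 296 at 1 log2 unit. The 31 lower genes were 19 after quantile normalization, 85 with 5 h arrays 2, 3 and 5 alone, 111 in the knock-out arrays, 118 without that array and 472 at 1 log2 unit. Leaving out each replicate in turn gave 26 to 38 higher and 24 to 55 lower genes. The 55 lower genes came without 5 h replicate 1, the 1 replicate that moved a count by over 1.5 times. Quantile normalization kept all 32 higher genes and 19 of the 31 lower ones. No filter on low values, the mean over the clusters of a gene, overlap allowed between groups, and genes on X and Y kept, moved the counts by at most 2. Centring on the 75th percentile moved the median of all genes by 0.06 and quantile normalization by 0.05. The cause of these changes was not tested. No paired analysis was possible because the groups belong to sets normalized apart, their replicate numbers pair no samples, and no test was made. With 3 and 5 arrays in separate sets, a shift of any size cannot be told apart from a change of set.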
